A study of Homo sapiens with 24 samples.

Results

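The miR-15, miR-16 and miR-107 group is a set of microRNAs (miRNAs) that share a stretch of bases near their 5′ end. It was taken by name from the table of mature miRNAs, where 9 of 2656 entries were members. These were hsa-miR-15a-5p, hsa-miR-15b-5p, hsa-miR-16-5p, hsa-miR-195-5p, hsa-miR-424-5p, hsa-miR-497-5p, hsa-miR-503-5p, hsa-miR-103a-3p and hsa-miR-107. All 9 members passed the filter on low counts and were among the 905 miRNAs tested. The names were chosen by family and not by a rule on measured values, although earlier results of these data were known.

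The miRNAs were sequenced in 24 libraries of OV90, a single established line of epithelial ovarian cancer cells, with 4 replicates in each of 6 groups. The cells carried an inducible shRNA that was a negative control (shNeg) or that silenced RELA (shRELA) or RELB (shRELB). RELA and RELB are transcription factors of the NF-κB family, RELA acting mainly in the canonical and RELB in the non-canonical branch. Each was grown as an adherent layer in medium with fetal calf serum, or as spheroids in low-attachment vessels in serum-replacement medium with EGF and FGF. All groups, controls included, received 1 µg/ml doxycycline for 72 h. The labels give the genotype of the shNeg cells as wild type, and the sample titles were followed in reading them as shRNA controls. Nothing says that replicates came from separate cultures, so p-values measure the spread between these libraries. Small RNA reads do not show how far RELA or RELB was silenced.

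A miRNA guides Argonaute proteins to messenger RNAs that pair with its seed, the bases close to its 5′ end, and the target is then repressed. miRNAs with the same seed therefore share many predicted targets. Members of the miR-15/16 family are known for repressing cell cycle regulators such as cyclins and for repressing BCL2, which blocks apoptosis. MIR15A and MIR16-1 lie in a region of chromosome 13 that is often deleted in chronic lymphocytic leukemia. miR-103 and miR-107 lie in introns of genes for pantothenate kinases, which begin coenzyme A synthesis, and are known for repressing DICER1, the enzyme that releases mature miRNAs.

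The mature sequences are shown because the group is defined by them and because close relatives can only be told apart at few bases. They are RefSeq sequences, 5′ to 3′, with the seed (bases 2 to 8) in capitals, and all 9 members were found there. The AGCAGCA class stands first.
hsa-miR-15a-5p: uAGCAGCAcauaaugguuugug
hsa-miR-15b-5p: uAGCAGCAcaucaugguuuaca
hsa-miR-16-5p: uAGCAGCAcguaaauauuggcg
hsa-miR-195-5p: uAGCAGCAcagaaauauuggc
hsa-miR-424-5p: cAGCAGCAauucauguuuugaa
hsa-miR-497-5p: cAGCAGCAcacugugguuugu
hsa-miR-503-5p: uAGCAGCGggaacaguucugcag
hsa-miR-103a-3p: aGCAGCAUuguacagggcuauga
hsa-miR-107: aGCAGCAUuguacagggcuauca

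Of the 9 members, 6 carried the seed AGCAGCA, hsa-miR-503-5p carried AGCAGCG, and hsa-miR-103a-3p and hsa-miR-107 carried GCAGCAU. The bases GCAGCA began at base 3 in the 6 miRNAs of the first class and at base 2 in hsa-miR-103a-3p and hsa-miR-107, so the shared stretch was shifted by a single base. hsa-miR-103a-3p and hsa-miR-107 differed at 1 of 23 positions, G22C (hsa-miR-103a-3p first, counted from the 5′ end). hsa-miR-16-5p and hsa-miR-195-5p differed at 2 of 21 positions compared, G10A and U11G. hsa-miR-15a-5p and hsa-miR-15b-5p differed at 4 of 22, A12C, G20A, U21C and G22A. Reads of hsa-miR-103a-3p and hsa-miR-107 are thus told apart near their 3′ end alone, and their split is uncertain for reads that lack that base. Of 2370 mature names in the reference, 9 held AGCAGC and 2 held GCAGCA at bases 2 to 7. The other two with AGCAGC, hsa-miR-646 and hsa-miR-6838-5p, had a count of 0 in every library.

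The hairpins lie in pairs, except those of hsa-miR-103a-3p and hsa-miR-107 (GRCh38.p14, RefSeq positions, GENCODE v44 genes). MIR15A (chr13:50049119-50049201, minus strand) overlaps an exon of the long noncoding RNA gene DLEU2, and MIR16-1 (chr13:50048973-50049061) lies 57 bases away in a DLEU2 intron. MIR15B (chr3:160404588-160404685, plus strand) and MIR16-2 (chr3:160404745-160404825) are 59 bases apart in an intron of SMC4, a condensin subunit gene. MIR195 (chr17:7017615-7017701) and MIR497 (chr17:7017911-7018022) are 209 bases apart on the minus strand and overlap exons of MIR497HG. MIR424 (chrX:134546614-134546711) and MIR503 (chrX:134546328-134546398) are 215 bases apart on the minus strand and overlap exons of MIR503HG. MIR103A1 (chr5:168560896-168560973), MIR103A2 (chr20:3917494-3917571) and MIR107 (chr10:89592747-89592827) lie in introns of PANK3, PANK2 and PANK1. Mature hsa-miR-16-5p comes from both MIR16-1 and MIR16-2, and hsa-miR-103a-3p from both MIR103A1 and MIR103A2, so their counts do not name a locus.

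Total counts ran from 3797175 to 8283549 in the 12 adherent libraries and from 959141 to 3580931 in the 12 spheroid libraries, so depth and culture cannot be told apart. Among spheroids, the shNeg libraries (959141 to 1580252) lay below every shRELA (2024133 to 2747599) and shRELB (1861232 to 3580931) library. Depth and silencing therefore cannot be told apart in spheroids either. Where no read was counted, up to 3 counts are allowed for, or 0.495 to 0.8 CPM (counts scaled to a common library size) in adherent and 0.860 to 2.29 CPM in spheroid libraries, for counting error only. The library of spheroid shNeg replicate 1 stood apart, with a count for 432 miRNAs where the other spheroid shNeg libraries had 813 to 885. The 5 epithelial markers were detected, led by hsa-miR-200c-3p (mean 5451 CPM) and hsa-miR-141-3p (123 CPM), with hsa-miR-200b-3p at 22.1, hsa-miR-200a-3p at 6.04 and hsa-miR-429 at 0.738 CPM, the last at 0 in 7 libraries. Their sum differed between the groups. It was 3290 to 3424 CPM with shNeg, 1965 to 2814 with shRELA and 7083 to 9015 with shRELB in adherent libraries, and 1679 to 2441, 3482 to 6852 and 7342 to 15883 CPM in spheroids. Its part in the results was not tested. The blood markers summed to at most 8.97 CPM and the muscle markers to at most 8.4 CPM in any library. The liver marker hsa-miR-122-5p was at 13732 to 29400 CPM in every library, and its part in the results was not tested. CPM below are scaled by TMM, a scaling that takes most miRNAs as unchanged between libraries.

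In adherent shNeg cells, hsa-miR-16-5p (27905 ± 1189 CPM, SD, n = 4) and hsa-miR-103a-3p (25078 ± 3213) were the most abundant members, and their libraries overlapped. hsa-miR-15b-5p followed at 9151 ± 1413 CPM and hsa-miR-107 at 1770 ± 156 CPM. hsa-miR-15a-5p was at 480 ± 60.1 CPM and hsa-miR-503-5p at 202 ± 8.08 CPM. The remaining members were rare, with hsa-miR-497-5p at 20.0 ± 3.13 CPM, hsa-miR-424-5p at 16.9 ± 4.17 CPM and hsa-miR-195-5p at 7.75 ± 1.28 CPM, hsa-miR-497-5p and hsa-miR-424-5p overlapping. A mature miRNA is read whole, so these levels need no length scaling, but differences in capture between sequences are not corrected.

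Together the 9 members took 5.99 ± 0.15% of all counts with shNeg, 6.28 ± 0.58% with shRELA and 5.47 ± 0.27% with shRELB in adherent culture, before any scaling. In spheroids they took 2.09 ± 0.45%, 3.35 ± 0.079% and 2.66 ± 0.27%. Every adherent library was thus above every spheroid library, at 5.07% or more against 3.46% or less. Among spheroids, the shRELA libraries (3.28% to 3.46%) lay above the shNeg libraries (1.48% to 2.51%) without overlap, and the shRELB libraries (2.37% to 2.93%) overlapped with the latter. hsa-miR-16-5p and hsa-miR-103a-3p made up 43.2% and 38.7% of the members' counts in adherent shNeg cells and 28.3% and 47.8% in shNeg spheroids.

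**Figure D1:**
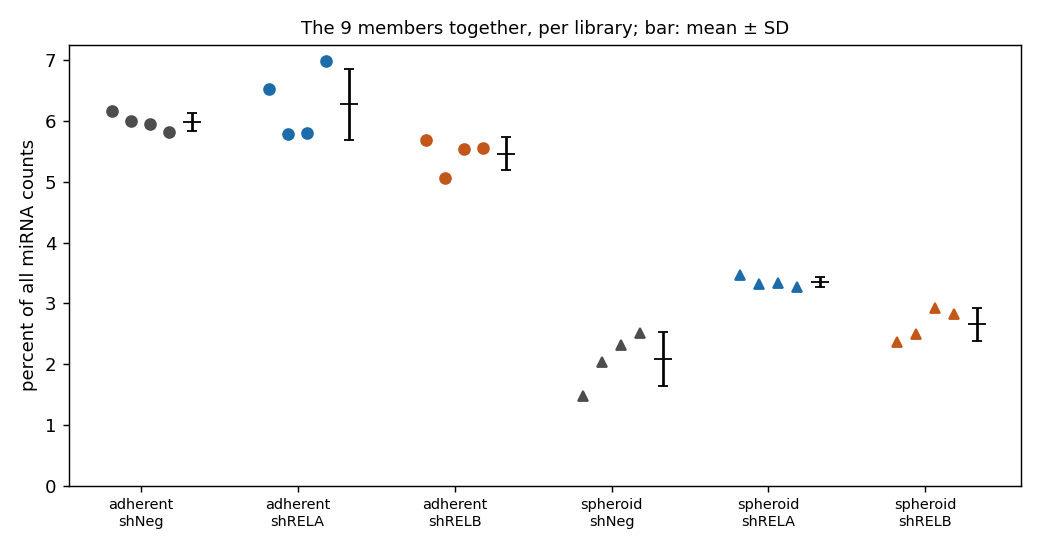
Percent of all miRNA counts taken by the 9 members in each library (y axis), by culture and shRNA (x axis), with mean ± SD of 4 libraries. Adherent libraries are at 5.07% to 6.98% and spheroid libraries at 1.48% to 3.46%.

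Spheroid and adherent culture were first compared in shNeg cells, which shows the difference between the culture conditions with neither factor silenced. Calls needed an FDR below 0.01 with a fold change of more than 2 in either direction. Of the 9 members, 8 were called lower in spheroids and none higher, where 42.2% of the 905 miRNAs tested were called and 20.9% were called lower. The members' median log2 fold change was -1.69, against -0.26 for all miRNAs tested.

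hsa-miR-16-5p was at 29274, 26837, 28524 and 26987 CPM in the adherent shNeg libraries and at 5684, 3949, 4223 and 4058 CPM in the spheroid shNeg libraries. The groups were far apart, and hsa-miR-16-5p fell 6.23-fold (log2 fold change -2.64 ± 0.20 SE, FDR 3.27e-13). Its relative hsa-miR-15b-5p was at 8448, 11244, 8728 and 8183 CPM in adherent cells and at 1045, 3277, 4221 and 4849 CPM in spheroids. It fell by 1.45 on the log2 scale (SE 0.26, FDR 1.34e-05), with spheroid replicate 1 lowest. hsa-miR-15a-5p was at 471, 559, 478 and 413 CPM in adherent cells and at 43.3, 114, 222 and 207 CPM in spheroids. It fell by 1.71 (SE 0.31, FDR 1.72e-05), and its spheroid libraries spread widely.

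In the GCAGCAU class, hsa-miR-103a-3p was at 27402, 20328, 26462 and 26120 CPM in adherent and at 6168, 6943, 9342 and 9321 CPM in spheroid shNeg libraries. It fell by 1.66 on the log2 scale (SE 0.17, FDR 6.77e-10). hsa-miR-107 was at 1949, 1574, 1810 and 1746 CPM in adherent cells and at 230, 509, 695 and 674 CPM in spheroids. It fell by 1.75 (SE 0.22, FDR 3.07e-08). Both members of the class were lower in every spheroid than in any adherent shNeg library, and the share of all miRNAs doing so was not counted.

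hsa-miR-503-5p was at 213, 201, 193 and 201 CPM in adherent and at 61.6, 80.2, 97.0 and 84.9 CPM in spheroid shNeg libraries. It fell by 1.32 on the log2 scale (SE 0.21, FDR 2.01e-06). Its neighbour hsa-miR-424-5p was at 14.8, 23.2, 14.9 and 14.95 CPM in adherent cells and at 0, 6.87, 4.62 and 2.11 CPM in spheroids, the last values resting on at most 9 counts. hsa-miR-424-5p fell by 2.29 (SE 0.56, FDR 0.00083), without overlap. hsa-miR-195-5p was at 9.12, 8.53, 6.46 and 6.87 CPM in adherent cells and at 0, 5.35, 1.03 and 3.51 CPM in spheroids, or at most 7 counts. It fell by 1.69 (SE 0.50, FDR 0.0043), a call that was lost without adherent shNeg replicate 1 (-1.61, FDR 0.0118) and without spheroid shNeg replicate 1 (-1.32, FDR 0.0125) or 3 (-1.54, FDR 0.0137).

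hsa-miR-497-5p, whose hairpin neighbours that of hsa-miR-195-5p, was the member not called. It was at 18.07, 23.999, 17.03 and 20.97 CPM in adherent and at 0, 12.98, 17.95 and 21.76 CPM in spheroid shNeg libraries, and the groups overlapped (log2 fold change -0.58 ± 0.41 SE, FDR 0.23). The TMM factors of the 4 spheroid shNeg libraries were 1.12 to 1.37, against 0.73 to 1.09 elsewhere. With library totals in place of TMM, the median of all miRNAs moved from -0.26 to 0.17, 5 members were called lower, and the members' median was 1.42 below that of all miRNAs where it was 1.44 below it with TMM. Fits of the compared groups alone called 4 members.

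**Figure D2:**
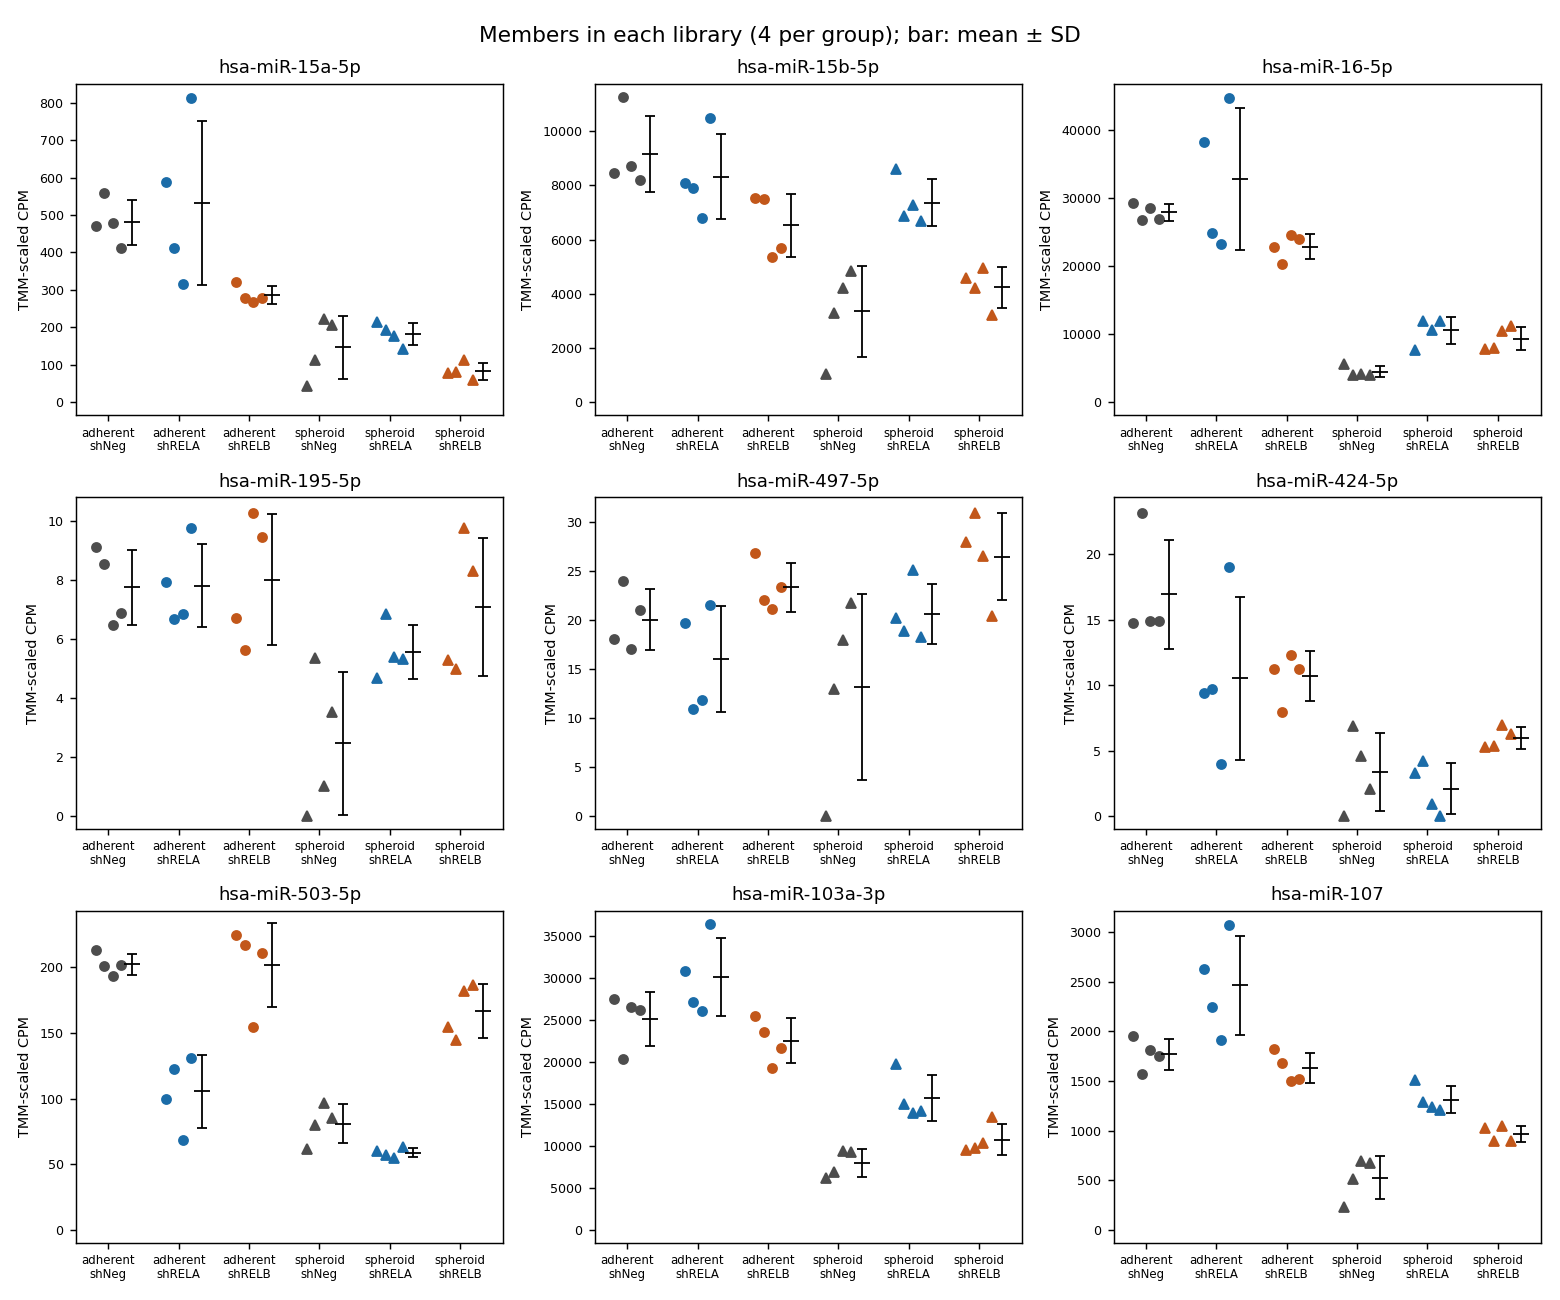
Level of each of the 9 members in TMM-scaled CPM (y axes start just below 0) in each library, by culture and shRNA (x axis), with mean ± SD of 4 libraries. hsa-miR-16-5p sits at 26837 to 29274 CPM in adherent and at 3949 to 5684 CPM in spheroid shNeg libraries, while hsa-miR-497-5p overlaps between them.

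The same comparison in silenced cells gave fewer calls among the members. With shRELA, 3 of 9 were called lower in spheroids and none higher, where 32.6% of all miRNAs were called and 15.8% were called lower. hsa-miR-15a-5p was at 589, 411, 315 and 812 CPM in adherent and at 214, 192, 176 and 143 CPM in spheroid shRELA libraries, and fell by 1.55 on the log2 scale (SE 0.31, FDR 9.69e-05). hsa-miR-16-5p was at 38271, 24926, 23201 and 44801 CPM in adherent and at 7688, 11963, 10679 and 11979 CPM in spheroid libraries, and fell by 1.63 (SE 0.19, FDR 1.9e-08). hsa-miR-424-5p was at 9.413, 9.731, 3.999 and 19.03 CPM against 3.280, 4.201, 0.895 and 0 CPM and fell by 2.40 (SE 0.58, FDR 0.00101), although replicates overlapped and the spheroid libraries held at most 8 counts.

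Another 3 members passed the FDR but not the fold threshold with shRELA. These were hsa-miR-103a-3p (log2 fold change -0.94 ± 0.17 SE), hsa-miR-107 (-0.91 ± 0.21) and hsa-miR-503-5p (-0.84 ± 0.21). With hsa-miR-15a-5p and hsa-miR-16-5p, they were the 5 of 9 members lower in every spheroid than in any adherent shRELA library, as were 25% of all miRNAs. All 3 were called without adherent shRELA replicate 3, at -1.01, -1.02 and -1.01, and hsa-miR-103a-3p (-1.17) and hsa-miR-107 (-1.08) without spheroid shRELA replicate 1. The members' median log2 fold change was -0.91, against 0.07 for all miRNAs. hsa-miR-15b-5p was among the 2 members whose log2 fold change was smaller than its standard error.

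With shRELB, 3 of 9 members were called lower in spheroids and none higher, where 25% of all miRNAs were called and 11.4% were called lower. hsa-miR-15a-5p was at 321, 277, 267 and 279 CPM in adherent and at 77.0, 80.1, 113 and 58.8 CPM in spheroid shRELB libraries, and fell by 1.80 on the log2 scale (SE 0.31, FDR 1.92e-05). hsa-miR-16-5p was at 22772, 20265, 24527 and 24032 CPM against 7862, 7904, 10416 and 11247 CPM and fell by 1.29 (SE 0.19, FDR 1.52e-06). hsa-miR-103a-3p was at 25466, 23533, 19193 and 21675 CPM against 9483, 9680, 10340 and 13400 CPM.

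hsa-miR-103a-3p fell by 1.07 with shRELB (SE 0.17, FDR 6.51e-06), close to the fold threshold, and was not called without adherent shRELB replicate 1 (-0.997). hsa-miR-107 passed the FDR alone, at -0.76 ± 0.21 (FDR 0.00482). The members' median was -0.76, against 0.00 for all miRNAs. hsa-miR-15a-5p and hsa-miR-16-5p were therefore called lower in spheroids with each of the 3 shRNAs. The share of all miRNAs called lower with all 3 was not counted.

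**Figure D3:**
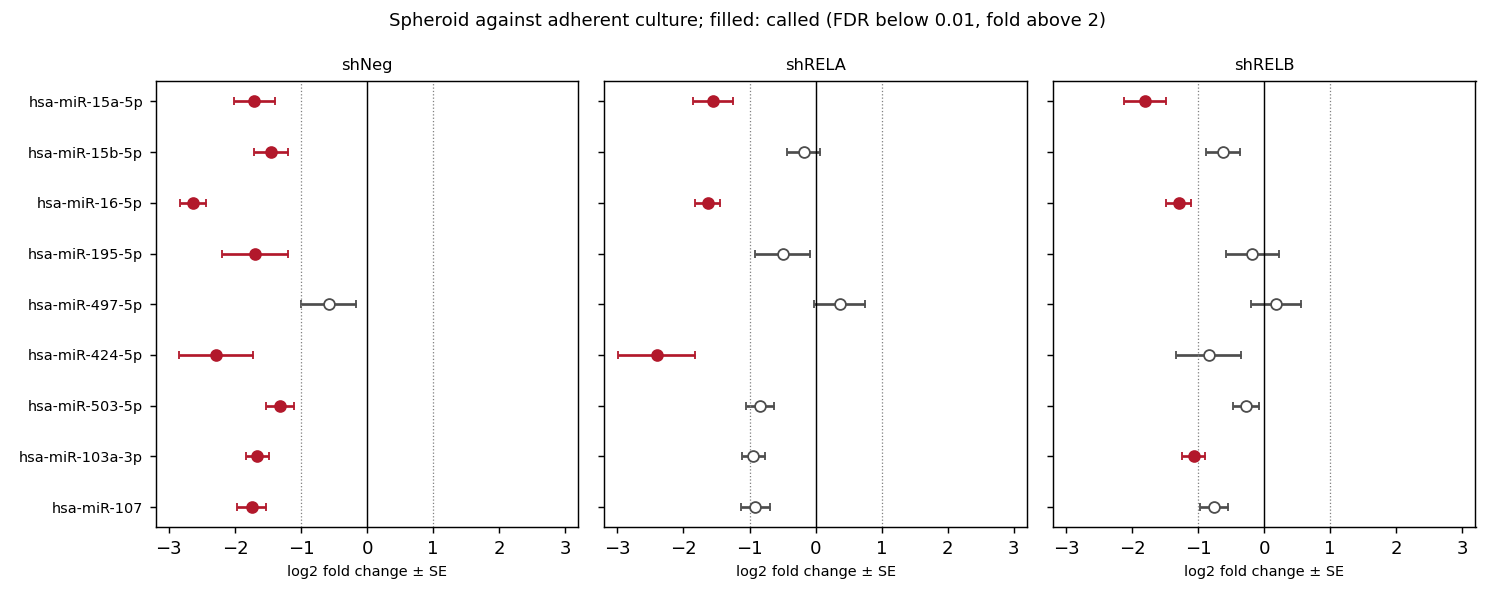
log2 fold change ± SE of each member between spheroid and adherent culture (x axis, lines at 0 and at a fold of 2 in either direction) with shNeg, shRELA and shRELB. Filled points were called: 8 with shNeg and 3 each with shRELA and shRELB, all lower in spheroids.

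Silencing of RELA in spheroids was then set against shNeg spheroids. Of the 9 members, 3 were called higher and none lower, where 15.1% of all miRNAs were called and 7.51% were called higher. hsa-miR-16-5p was at 7688, 11963, 10679 and 11979 CPM with shRELA, above all 4 shNeg libraries given above (at most 5684 CPM), and rose 2.36-fold (log2 fold change 1.24 ± 0.19 SE, FDR 5.82e-06). hsa-miR-107 was at 1507, 1292, 1238 and 1206 CPM with shRELA and at most at 695 CPM with shNeg, and rose 2.48-fold (1.31 ± 0.22, FDR 1.89e-05). hsa-miR-15b-5p was at 8604, 6854, 7260 and 6692 CPM with shRELA and at most at 4849 CPM with shNeg, and rose 2.20-fold (1.13 ± 0.26, FDR 0.000968).

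hsa-miR-103a-3p was at 19745, 14947, 13851 and 14120 CPM with shRELA and at most at 9342 CPM with shNeg, also without overlap. Its log2 fold change of 0.98 (SE 0.17, FDR 3.83e-05) passed the FDR and fell just short of the fold threshold. It was called at 1.00 to 1.03 when spheroid shNeg replicate 3 or 4 or spheroid shRELA replicate 2 or 4 was left out. For RELA in spheroids, the share of all miRNAs without overlap was not counted.

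hsa-miR-503-5p had a negative log2 fold change, at 60.4, 57.2, 54.6 and 63.1 CPM with shRELA (-0.46 ± 0.21 SE, FDR 0.101), and overlapped with shNeg. hsa-miR-195-5p was at 4.69, 6.83, 5.37 and 5.32 CPM, from 10 to 14 counts, and was not called (1.21 ± 0.53, FDR 0.0858). hsa-miR-497-5p (0.62 ± 0.42) and hsa-miR-424-5p (-0.79 ± 0.70) were not called either, and hsa-miR-15a-5p differed by less than its standard error.

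The calls with shRELA rested in part on the scaling and on a single control library. Without spheroid shNeg replicate 1, hsa-miR-15b-5p was at 0.84 (FDR 0.000178) and no longer called, while hsa-miR-16-5p and hsa-miR-107 were still called. Median-ratio size factors also ended the call of hsa-miR-15b-5p (0.97), and a filter at a mean of 10 CPM ended it (0.94) and that of hsa-miR-16-5p (0.99). With library totals in place of TMM no member was called, since hsa-miR-16-5p was at 0.86, hsa-miR-107 at 0.89 and hsa-miR-15b-5p at 0.71. The median of all miRNAs moved from 0.09 to -0.25 at the same time, so the members' median lay 0.89 above it with TMM and 0.83 above it with library totals.

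Silencing of RELB in spheroids gave 2 members called higher and none lower, where 13.4% of all miRNAs were called and 7.29% were called higher. The shNeg libraries were those used for RELA. hsa-miR-16-5p was at 7862, 7904, 10416 and 11247 CPM, above every shNeg spheroid library, and rose 2.09-fold (log2 fold change 1.06 ± 0.19 SE, FDR 4.78e-05). hsa-miR-503-5p was at 154, 145, 182 and 187 CPM, against 61.6 to 97.0 CPM with shNeg, and rose 2.06-fold (1.04 ± 0.21, FDR 0.000241).

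hsa-miR-107 was at 1021, 893, 1049 and 894 CPM with shRELB, also above every shNeg library, and passed the FDR alone (0.87 ± 0.22, FDR 0.00258). hsa-miR-15a-5p, in contrast, was at 77.0, 80.1, 113 and 58.8 CPM and lower than 3 of the 4 shNeg libraries (-0.84 ± 0.31, FDR 0.0404). Without spheroid shNeg replicate 1, the library where it was lowest, hsa-miR-15a-5p was called lower (-1.15, FDR 0.000111). For RELB in spheroids, the share of all miRNAs above every shNeg library was not counted.

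The rare members were not called with shRELB by edgeR with all libraries. hsa-miR-195-5p was at 5.27, 4.99, 9.76 and 8.32 CPM (1.57 ± 0.51, FDR 0.021) and was called without spheroid shNeg replicate 2 (2.19, FDR 0.00482) and by limma (1.51, FDR 0.00604). hsa-miR-497-5p was at 27.9, 30.9, 26.5 and 20.4 CPM (0.98 ± 0.42, FDR 0.0797). hsa-miR-424-5p (0.79 ± 0.61), hsa-miR-103a-3p (0.43 ± 0.17, FDR 0.0568) and hsa-miR-15b-5p (0.34 ± 0.25) were not called.

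The 2 calls with shRELB lay close to the fold threshold. hsa-miR-16-5p was at 0.91 to 0.97 and not called when replicate 2, 3 or 4 of the shNeg spheroids or replicate 4 of the shRELB spheroids was left out. hsa-miR-503-5p was at 0.93 to 1.00 and not called without replicate 1 or 4 of the shNeg spheroids or replicate 4 of the shRELB spheroids. Neither was called with median-ratio size factors (0.92 and 0.90) or with a filter at a mean of 10 CPM (0.84 and 0.85). With library totals neither was called (0.80 and 0.76), hsa-miR-15a-5p was called lower (-1.12, FDR 0.00701), and the members' median lay 0.67 above that of all miRNAs where it lay 0.71 above it with TMM.

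**Figure D4:**
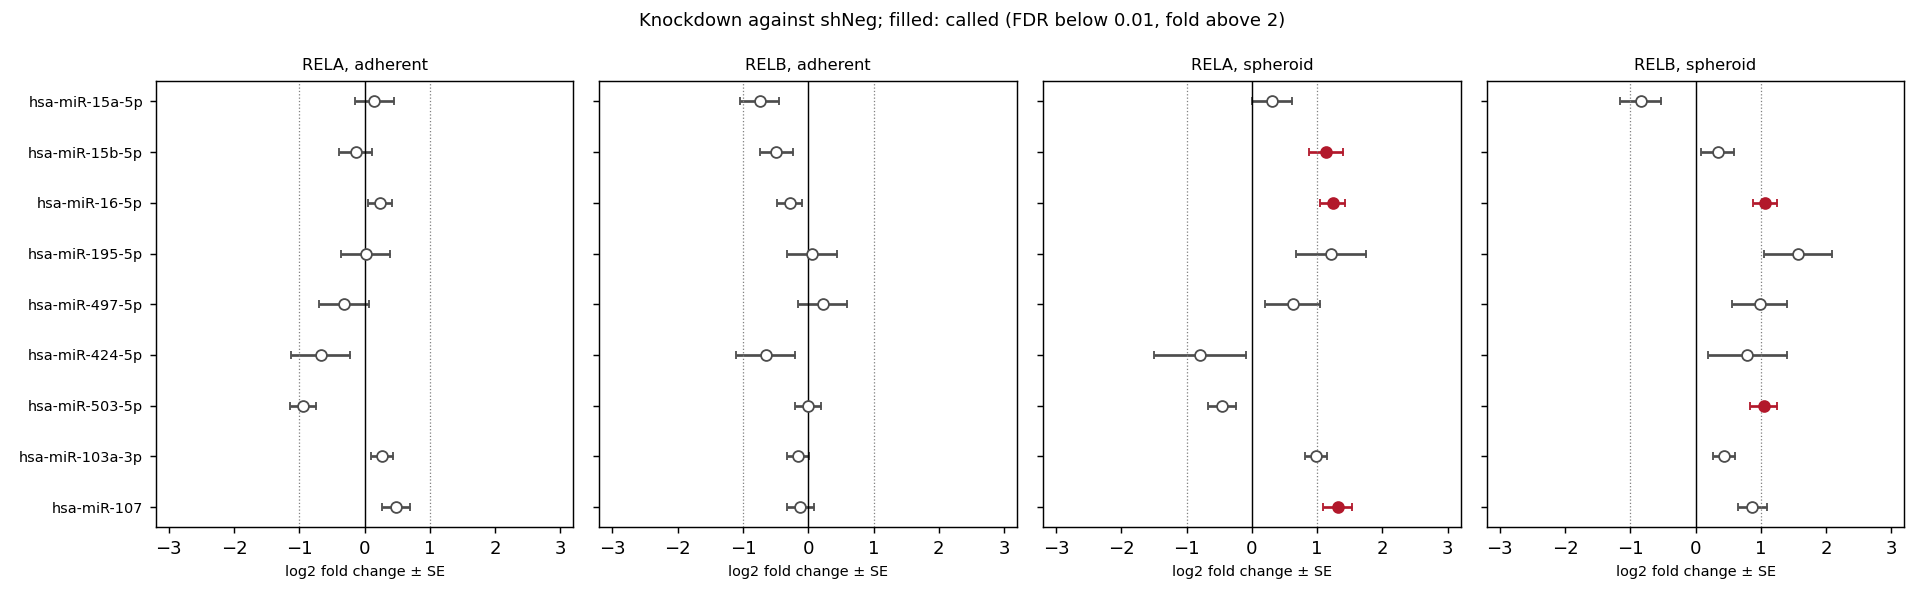
log2 fold change ± SE of each member against shNeg (x axis, lines at 0 and at a fold of 2 in either direction) for both knockdowns in both cultures. No member was called in adherent cells, and 3 (RELA) and 2 (RELB) were called higher in spheroids.

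In adherent cells, no member was called after silencing of RELA, where 3.76% of all miRNAs were called, or of RELB, where 7.07% were. That held for the main edgeR fit, DESeq2 and limma. At an unadjusted p below 0.05, 2 of 9 members passed with shRELA, where 18.1% of all miRNAs did, and 1 of 9 with shRELB, where 24.8% did. With shRELA, hsa-miR-503-5p was at 99.9, 123, 68.2 and 131 CPM, below all 4 shNeg libraries (193 to 213 CPM). Its log2 fold change of -0.94 (SE 0.20, FDR 0.00166) passed the FDR and not the fold threshold. It was called at -1.02 to -1.05 without adherent shNeg replicate 2 or adherent shRELA replicate 1, 2 or 4. It was also called at -1.07 with library totals, -1.04 with no filter and -1.01 with only the groups compared. The share of all miRNAs below every adherent shNeg library with shRELA was not counted.

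The other members did not pass the FDR with shRELA in adherent cells. hsa-miR-107 was at 2628, 2245, 1911 and 3066 CPM (0.48 ± 0.21, FDR 0.223), hsa-miR-103a-3p at 0.26 ± 0.17 and hsa-miR-16-5p at 0.23 ± 0.19 on the log2 scale. hsa-miR-424-5p was at -0.67 ± 0.45, and 4 members differed by less than their standard error. With shRELB, 4 of 9 members lay below every shNeg library, as did 15.9% of all miRNAs, and none passed the FDR. These were hsa-miR-15a-5p (-0.75 ± 0.30, FDR 0.0955), hsa-miR-15b-5p at 7530, 7494, 5363 and 5704 CPM (-0.49 ± 0.25, FDR 0.232), hsa-miR-16-5p at 20265 to 24527 CPM (-0.29 ± 0.19, FDR 0.37) and hsa-miR-424-5p at 7.95 to 12.3 CPM (-0.65 ± 0.45, FDR 0.404). hsa-miR-503-5p, at 225, 217, 154 and 211 CPM with shRELB, was among 5 members that differed by less than their standard error.

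The shRELA and shRELB libraries were also compared directly, without the shNeg libraries. In adherent cells no member was called in the main edgeR fit, by DESeq2 or by limma, where 10.8% of all miRNAs were called. Of the 9 members, 5 had an unadjusted p below 0.05, as did 32.7% of all miRNAs. hsa-miR-503-5p was lower with shRELA than with shRELB in every library (-0.93 ± 0.20, FDR 0.000765), passing the FDR alone. It was called at -1.01 to -1.04 without adherent shRELA replicate 1, 2 or 4 or adherent shRELB replicate 3. It was also called at -1.18 with library totals and -1.05 with a filter at a mean of 10 CPM. hsa-miR-15a-5p was higher with shRELA (0.89 ± 0.30, FDR 0.0266) and was called without adherent shRELA replicate 3 (1.09, FDR 0.00885). How many of all miRNAs did not overlap between adherent shRELA and shRELB libraries was not counted.

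In spheroids 2 members were called between shRELA and shRELB, in opposite directions, where 6.63% of all miRNAs were called. hsa-miR-503-5p was at 54.6 to 63.1 CPM with shRELA and at 145 to 187 CPM with shRELB, a log2 difference of -1.50 (SE 0.21, FDR 2.18e-06) that was called whichever library was left out. hsa-miR-15a-5p was at 143 to 214 CPM with shRELA and at 58.8 to 113 CPM with shRELB, a difference of 1.14 (SE 0.31, FDR 0.00953). That of hsa-miR-15a-5p was not called without spheroid shRELA replicate 1, 2 or 3 or spheroid shRELB replicate 1, 2 or 4, at 1.02 to 1.17 with FDRs of 0.0122 to 0.0327. hsa-miR-15b-5p (0.80 ± 0.26, FDR 0.0282) and hsa-miR-103a-3p (0.55 ± 0.17, FDR 0.0244) were higher with shRELA without overlap and were not called. How many of all miRNAs did not overlap between these groups was not counted.

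Whether a knockdown differed between the cultures was tested by the difference of its log2 fold changes, spheroid minus adherent. With RELA, 1 of 9 members was called, where 7.62% of all miRNAs were called and 4.31% in the same direction. With RELB, 1 of 9 was called, where 8.51% of all miRNAs were called and 4.64% in the same direction. Both times it was hsa-miR-16-5p, and both tests use the same shNeg libraries.

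For hsa-miR-16-5p and RELA, the change was 0.23 in adherent cells and 1.24 in spheroids, a difference of 1.01 (SE 0.26, FDR 0.00793). This call was lost at 0.86 to 1.02, with FDRs of 0.0129 to 0.0252, without adherent shNeg replicate 1, 3 or 4, adherent shRELA replicate 2 or 3 or spheroid shRELA replicate 2. For hsa-miR-16-5p and RELB, the change was -0.29 in adherent cells and 1.06 in spheroids, a difference of 1.35 (SE 0.26, FDR 0.000433), which was called whichever library was left out. With library totals both differences stayed positive, at 0.78 (FDR 0.0179) and 0.95 (FDR 0.00303), and neither was called. That with RELA was also not called with median-ratio size factors (0.81, FDR 0.0262).

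Other members lay near the thresholds of this test. With RELA, hsa-miR-15b-5p differed by 1.27 (SE 0.36, FDR 0.0149), and it was called without spheroid shNeg replicate 3 (1.45) or 4 (1.59) or spheroid shRELA replicate 4 (1.40). With RELB, hsa-miR-503-5p differed by 1.05 (SE 0.29, FDR 0.0101), and it was called at 1.09 to 1.23 when replicate 2, 3 or 4 of the shNeg spheroids or replicate 1, 2 or 4 of the shRELB spheroids was left out. hsa-miR-107 differed by 0.99 with RELB (SE 0.30, FDR 0.0217), and it was called at 1.15 to 1.24 without replicate 3 or 4 of the shNeg spheroids or replicate 4 of the shRELB spheroids.

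Ratios within a library do not depend on the scaling, and 5 of them were compared in the 7 knockdown and culture comparisons. Of the 35 exact two-sided permutation tests of 4 against 4 libraries, 9 reached 0.0286, the smallest p that the design allows, and none passed after adjustment (smallest FDR 0.111). A pass would have needed most of the 35 tests to reach that p. hsa-miR-15b-5p was 17.9 to 20.1 times as abundant as hsa-miR-15a-5p in adherent shNeg libraries and 19.0 to 28.7 times in shNeg spheroids. It was 35.6 to 46.7 times as abundant in shRELA spheroids and 43.7 to 59.5 times in shRELB spheroids, above every shNeg spheroid library in 4 of 4 libraries each (exact permutation p = 0.0286, FDR 0.111). In adherent cells the ratio was 12.9 to 21.6 with shRELA and 20.1 to 27.0 with shRELB.

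hsa-miR-103a-3p exceeded hsa-miR-107 by 12.92 to 14.96 times in adherent shNeg libraries and by 13.4 to 26.7 times in shNeg spheroids, the highest value being that of replicate 1. The ratio was 11.2 to 13.1 in shRELA spheroids and 9.285 to 14.99 in shRELB spheroids, so it varied less between groups than that of hsa-miR-15b-5p to hsa-miR-15a-5p. hsa-miR-424-5p stood at 0.0696 to 0.116 of hsa-miR-503-5p in adherent shNeg libraries. In spheroids it ran from 0.003 to 0.0900, where libraries with 0 counts of hsa-miR-424-5p set the low end.

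The opposite arms of the hairpins are specific to a locus. They were counted in a list of 11 that also held hsa-miR-103b, from the other strand at the MIR103A loci and at 0 in every library, and 8 opposite arms were tested. hsa-miR-15b-3p, from MIR15B, was at 276, 278, 234 and 220 CPM in adherent and at 6.60, 25.2, 36.9 and 40.7 CPM in spheroid shNeg libraries. It fell by 3.19 on the log2 scale (SE 0.32, FDR 3.37e-10) in spheroids with shNeg, by 2.04 with shRELA and by 1.39 with shRELB. hsa-miR-16-2-3p, from the neighbouring MIR16-2, fell by 2.68, 1.97 and 1.48 in the same comparisons, from 26.9 to 36.0 CPM in adherent to 0 to 9.93 CPM in spheroid shNeg libraries.

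The arm of MIR16-1 was much rarer. hsa-miR-16-1-3p was at 3.48 to 5.87 CPM in adherent shNeg libraries and had at most 1 count in each shNeg spheroid library. At a limit of 3 counts per library it was 2.31-fold lower, which is no strict bound where a read was counted. hsa-miR-15a-3p was at 1.53 to 3.64 CPM in adherent shRELA libraries and at 0 in all 4 shRELA spheroid libraries, at least 1.66-fold lower at the same limit. In adherent shNeg libraries the MIR16-2 arm was 4.91 to 9.70 times as abundant as the MIR16-1 arm.

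In spheroids hsa-miR-15b-3p was at 53.0, 79.8, 64.4 and 65.0 CPM with shRELA and at 38.5, 53.9, 93.0 and 70.8 CPM with shRELB. It rose by 1.24 (SE 0.32, FDR 0.00282) and by 1.21 (SE 0.31, FDR 0.00391), and neither was called without spheroid shNeg replicate 1 (0.93 and 0.90). hsa-miR-15b-3p was also called in the difference between cultures with RELB (1.79 ± 0.42, FDR 0.00287). Of the 8 opposite arms tested, 1 was called higher with RELA in spheroids (7.51% of all miRNAs) and 2 with RELB (7.29%), and 3 were called lower in spheroid against adherent shNeg cells (20.9%). In the culture comparison with shRELA 3 were called lower (15.8%) and 1 higher (16.8%). With shRELB 2 were called lower (11.4%) and 1 higher (13.6%), the higher one being hsa-miR-503-3p both times.

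The arms of MIR503 did not move together with culture. hsa-miR-503-3p was at 18.6, 18.1, 19.5 and 22.5 CPM in adherent and at 18.34, 12.98, 10.77 and 15.44 CPM in spheroid shNeg libraries and was not called there (-0.46 ± 0.26, FDR 0.12). In silenced cells it was higher in spheroids, by 1.14 with shRELA (SE 0.25, FDR 0.000309) and by 1.13 with shRELB (SE 0.24, FDR 0.000231), where hsa-miR-503-5p had negative log2 fold changes. The ratio of hsa-miR-503-3p to hsa-miR-503-5p, examined after the data were seen and not tested, was 0.0677 to 0.169 in the 12 adherent and 0.113 to 0.443 in the 12 spheroid libraries. By its median, the same ratio was also higher in spheroids for MIR424, at 0.931 to 5 (median 2.26) in adherent and 2.89 to 57 (median 6.57) in spheroid libraries. For MIR195 it was 0.190 to 0.690 (median 0.404) and 0.535 to 6.2 (median 1.05), on few counts. That of MIR424 was among the ratio tests above and reached p = 0.0286 (exact permutation, FDR 0.111) in each culture comparison. The ratio for MIR15B ran the other way, at 0.0206 to 0.0390 in adherent and 0.00618 to 0.0222 in spheroid libraries.

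**Figure D5:**
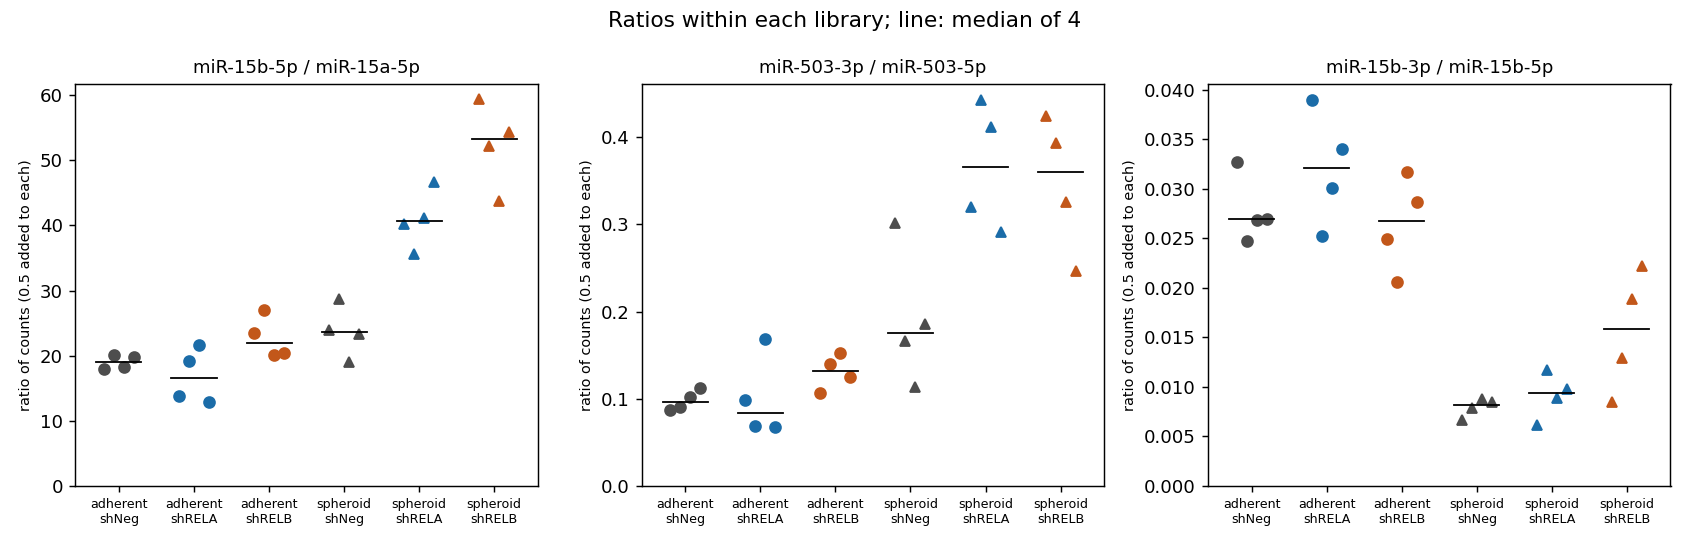
Ratios of counts within each library (y axes, 0.5 counts added to each miRNA) by culture and shRNA (x axis), with the median of 4 libraries as a line. The ratio of miR-15b-5p to miR-15a-5p is 35.6 or more in each shRELA and shRELB spheroid library and 28.7 or less elsewhere, and the 3p to 5p ratio is higher in spheroids for MIR503 and lower for MIR15B.

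Both arms of MIR503 were lower with shRELA than with shRELB. hsa-miR-503-3p was at 9.74, 8.40, 11.4 and 8.77 CPM in adherent shRELA and at 23.8, 30.2, 23.5 and 26.2 CPM in adherent shRELB libraries (-1.43 ± 0.24, FDR 2.77e-05). In spheroids it was at 19.2, 25.2, 22.4 and 18.2 CPM with shRELA and at 65.4, 56.9, 59.1 and 45.9 CPM with shRELB (-1.42 ± 0.24, FDR 5.54e-05). Against shNeg, hsa-miR-503-3p fell by 1.04 with RELA knockdown in adherent cells (SE 0.24, FDR 0.00399) and rose by 1.99 with RELB knockdown in spheroids (SE 0.26, FDR 2.73e-07). The latter was called at 2.13 without spheroid shNeg replicate 1. It was called as well in the difference between cultures with RELA (1.61) and with RELB (1.59).

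hsa-miR-424-3p, the opposite arm of MIR424, was at 12.8 to 18.9 CPM in adherent shRELA and at 36.6 to 44.5 CPM in adherent shRELB libraries, and was lower with shRELA (-1.27 ± 0.36, FDR 0.00872). It was 1.51 to 2.45 times as abundant as hsa-miR-424-5p in adherent shNeg libraries, 0.931 to 3.14 times in adherent shRELA and 2.99 to 5 times in adherent shRELB libraries. In shRELA spheroids it was at 10.6 to 27.8 CPM and in shRELB spheroids at 37.3 to 48.8 CPM (-0.94 ± 0.37, FDR 0.0774).

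The rest of the cluster that holds MIR424 and MIR503 was sparse. Of 7 further miRNAs 5 were tested, and none was called after either knockdown in either culture. In spheroid against adherent cells 3 of the 5 were called lower with shNeg (20.9% of all miRNAs), 2 with shRELA (15.8%) and 2 with shRELB (11.4%). hsa-miR-542-3p was at 2.75 to 7.17 CPM in adherent shNeg libraries and at most at 3 counts in each spheroid library. At a limit of 3 counts per library it was 2.58-fold lower with shNeg, 3.299-fold with shRELA and 3.72-fold with shRELB. hsa-miR-450a-2-3p, with up to 3 counts in shNeg spheroid libraries, was 3.31-fold lower with shNeg at the same limit. Where reads were counted, these folds are no strict lower bounds. hsa-miR-450a-1-3p was at 0 in every shNeg and shRELB spheroid library, at least 1.17-fold and 1.26-fold lower, and with shRELA, where it was called too, the fold at this limit did not exceed 1. hsa-miR-542-5p, at 26.2 to 35.3 CPM in adherent shNeg cells, was not called in any comparison with all libraries. Without spheroid shNeg replicate 1 it was called lower in shRELA spheroids than in shNeg spheroids (-1.15, FDR 0.00739) and than in shRELB spheroids (-1.21, FDR 0.00177).

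Across the 6 group means of log2(CPM + 1), the members fell into different patterns, given here as a description over 6 points that share their libraries. hsa-miR-16-5p and hsa-miR-103a-3p correlated at r = 0.98, and hsa-miR-103a-3p and hsa-miR-107 at r = 0.97. hsa-miR-503-5p correlated with the other members with at least 10 CPM at r = 0.21 to 0.52, and hsa-miR-15a-5p with hsa-miR-497-5p at r = 0.05. Among 328 miRNAs outside the group with a mean of at least 10 CPM, hsa-miR-16-5p was most like hsa-miR-15b-3p (r = 0.998) and hsa-miR-16-2-3p (r = 0.998). These are the opposite arms of the chromosome 3 hairpins. Close behind came hsa-miR-4521 (r = 0.997). The arms of the chromosome 13 hairpins, hsa-miR-16-1-3p (mean 2.17 CPM) and hsa-miR-15a-3p (0.915 CPM), were too rare to be among the 328. The ranking therefore does not compare the loci. hsa-miR-503-5p was most like hsa-miR-542-5p (r = 0.94), with hsa-miR-143-3p and hsa-miR-181a-2-3p close behind (both r = 0.93). hsa-miR-107 was most like hsa-miR-96-5p (r = 0.994), hsa-miR-103a-3p like hsa-miR-500b-5p (r = 0.997), hsa-miR-15a-5p like hsa-miR-93-3p (r = 0.986), hsa-miR-15b-5p like hsa-miR-5010-3p (r = 0.991) and hsa-miR-497-5p like hsa-miR-140-5p (r = 0.948).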

How the data were processed

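Small RNA libraries of OV90 cells were made by the authors with the QIAseq miRNA kit, which adds a unique molecular index to each molecule. Whether reads with the same index were collapsed is not given in the sources used here. Per the authors, Cutadapt removed adapters and miRDeep2 assigned the reads to miRNAs of miRBase. The deposited values are estimated counts, 1 for each mature miRNA and library. The table's title speaks of CPM, but totals varied between libraries and most values were whole. Fractions occurred in 3.04% of the values above 0, on 84 miRNAs, hsa-miR-16-5p and hsa-miR-103a-3p among these, and were rounded. RefSeq and GENCODE gave sequences and positions.

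After TMM scaling, edgeR 4.0.16 (quasi-likelihood, R 4.3.3) was run on all 24 libraries, with a term for each of the 6 groups and no other. In all 905 miRNAs were tested, those that reached 1 CPM in 4 or more libraries, with 99.98% or more of every library's counts. Benjamini-Hochberg FDRs were taken over all of them. A call needed an FDR below 0.01 and a fold above 2, the paper's thresholds. Standard errors are the log2 fold change over the root of F. Log2 fold changes smaller than their standard error are given as counts only. Ratios had 0.5 counts added.

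The text names the 9 members, the opposite arms of MIR15A, MIR15B, MIR16-1, MIR16-2, MIR424 and MIR503, listed miRNAs called in a comparison, and the 3 miRNAs most like each member with at least 10 CPM, of which the first are printed. The members and lists were chosen with earlier results of these data known. Alternatives were leaving out the filter, a filter at a mean of 10 CPM, library totals, size factors by median ratios, DESeq2 1.42.0, limma 3.58.1 on log2(CPM + 1), a block for the replicate number, a fit of the compared groups alone, no fold threshold, and each library left out. Depth set the limit of 3 counts per library. The test was checked on simulated data for RELA knockdown in spheroids. It recovered 78 of 94 miRNAs changed by 1.5 and 106 of 106 changed by 3 on the log2 scale. There were 0 calls among 643 unchanged miRNAs. Members called in this comparison changed by less than 1.5, so the check does not show how often changes of their size are found. Nor does it bear on the dependence of those calls on the scaling or on a single library. Replicates of a group differed by more than sampling noise (chi-square per degree of freedom 10.2 or more).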

Additional observations from a re-analysis of the deposited data

Results flagged for a closer look

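hsa-miR-16-5p was at 5684 CPM in spheroid shNeg replicate 1 and at 3949 to 4223 CPM in the other 3 libraries of that group, farther out than Dixon's 95% limit allows for 4 values. Each of the other 8 members was lowest of its group in this library. hsa-miR-424-5p was at 23.2 CPM in adherent shNeg replicate 2 and at 14.8 to 14.95 CPM in the other 3 libraries. In all, 54 sets of 4 values were tested this way, and chance picks out about 1 in 20 of them.

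The change of hsa-miR-16-5p on silencing RELA differed between spheroid and adherent cells by 1.01 on the log2 scale (FDR 0.00793), and that on silencing RELB by 1.35 (FDR 0.000433), both greater in spheroids. Both differences share the shNeg libraries. Without spheroid shNeg replicate 1, both were still called.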

How the results depend on the processing

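Over the alternatives and each library left out, no member's log2 fold change larger than its standard error changed sign. Of 23 calls of a member in a comparison, library totals lost 11 and added 3, only the groups compared lost 8 and added 3, a filter at a mean of 10 CPM lost 7 of 20 and added 2, median-ratio size factors and DESeq2 lost 4 and added 2 each, limma lost 1 and added 2, no filter added 6 and no fold threshold added 8. The number of members called moved by more than 1.5 times as follows, the cause not being tested. For RELA knockdown in adherent cells (0) it was 1 with no filter, library totals, only the groups compared or no fold threshold. For RELA knockdown in spheroids (3) it was 1 with a filter at 10 CPM and 0 with library totals. With only the groups compared it stayed at 3, but hsa-miR-103a-3p (1.02, FDR 0.00251) took the place of hsa-miR-15b-5p (1.19, FDR 0.0227). For RELB knockdown in spheroids (2) it was 1 with a filter at 10 CPM or library totals and 0 with median-ratio size factors, DESeq2 or only the groups compared. That 1 was hsa-miR-15a-5p, called lower (-1.0045, FDR 0.00725, with the filter). Neither member called higher was kept in any of these settings. For spheroid against adherent shNeg (8) it was 5 with a filter at 10 CPM or library totals and 4 with only the groups compared. With shRELA (3) it was 6 with no filter or no fold threshold and 5 with median-ratio size factors or DESeq2. For RELA against RELB in adherent cells (0) it was 1 with a filter at 10 CPM, library totals or no fold threshold. In spheroids (2) it was 1 with library totals or limma. For RELA by culture (1) it was 2 with no filter and 0 with a filter at 10 CPM, median-ratio size factors, library totals or DESeq2. For RELB by culture (1) it was 2 with no filter, limma or only the groups compared and 0 with library totals. Smaller moves were to 2 with median-ratio size factors or DESeq2 and 4 with no fold threshold for RELA in spheroids (3), to 3 with limma, which added hsa-miR-195-5p, or no fold threshold for RELB in spheroids (2), to 2 with a filter at 10 CPM for culture with shRELA (3), and to 2 with a filter at 10 CPM or only the groups compared and 4 with no fold threshold for culture with shRELB (3). The filter at a mean of 10 CPM left out hsa-miR-195-5p and hsa-miR-424-5p. Leaving out each library gave 0 to 1, 0 to 0, 2 to 4 and 0 to 2 members called for RELA and RELB in adherent cells and in spheroids, 7 to 8, 3 to 6 and 2 to 3 for culture with shNeg, shRELA and shRELB, 0 to 1 and 1 to 2 for RELA against RELB in adherent cells and spheroids, and 0 to 2 and 1 to 3 for RELA and RELB by culture.

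The replicate numbers did not pair the libraries. Same-numbered libraries of different groups correlated in their deviations from the group means at -0.24 to 0.23 (median -0.01, 60 pairs, 2 above 0.1), and 2 of 24 libraries matched best with their own number. With the number as a block, 1 member was called for RELA against RELB knockdown in spheroids in place of 2, hsa-miR-15a-5p being lost (1.16, FDR 0.0139), and no other call changed. The ratio tests passed 0 times after adjustment with 0.1 or 1 count added. With the replicate block, the pairs of libraries are too few for any p to pass, so that setting decides nothing. Without each library, the differences in log2 ratio were recomputed and not tested. Each moved by less than the larger SD of the groups compared. Depth limits the rare members most, since hsa-miR-195-5p and hsa-miR-424-5p had 0 to 29 counts in spheroid libraries.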
